A study of Mus musculus with 5 samples.

Results

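Transcripts of microglia, of macrophages at the borders of the brain and of the complement system were examined in 5 samples of whole-hemisphere RNA from male mice. The members are 39 genes listed by symbol, all found among the 47729 rows of the deposited count table. They comprise 11 homeostatic microglia genes, 8 genes shared by microglia and other myeloid cells, 5 activation genes, 7 border macrophage genes, 5 complement genes and 3 ligands that act on microglia. All samples form 1 group, right hemispheres taken at an age of 5 months from males of C57BL/6, a standard inbred mouse strain, and the labels give no mutation, transgene or agent. Libraries were made with an mRNA kit, 1 per sample. Nothing in the labels says that the samples came from separate mice. They are called animals below, and p-values measure the spread between samples, which may be technical. The animals are numbered 1 to 5 in accession order, and the numbers carry no rank. Total counts ran from 13184234 to 15570064 per library.

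Microglia are the resident macrophages of the brain tissue. They depend on the receptor CSF1R and its ligands CSF1 and IL-34, are addressed by neurons through the membrane-bound chemokine CX3CL1, and make the C1q chains that start the classical complement pathway. Border macrophages sit in the meninges, around vessels and in the choroid plexus and carry scavenger receptors such as CD206 and CD163. Microglia that meet amyloid, dying cells or myelin debris switch off homeostatic genes and switch on Itgax, Cst7, Spp1, Gpnmb and Lgals3.

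Homeostatic and shared myeloid genes were detected in all 5 brains, and 4 of the 5 activation genes, all but Spp1, averaged below 1 RPKM. Levels are given as RPKM, counts scaled by gene length and by the library's total count, and each mean is followed by ± its SD (n = 5 animals). Over the members of a group, the median of the mean levels was 24.7 RPKM for the ligands, 17.4 for complement, 7.51 for the shared myeloid genes, 5.04 for the homeostatic genes, 1.002 for the border macrophage genes and 0.412 for the activation genes. Over all 14770 genes that passed the low-count filter the median was 5.80 RPKM. All 11 homeostatic and all 8 shared myeloid genes had a mean of at least 1 RPKM, as did 4 of 7 border macrophage genes and 1 of 5 activation genes. In bulk tissue, fewer cells of a type and less RNA per cell cannot be told apart, so a low level does not say which applies. No test was made of the group levels, because the genes were chosen with earlier results of these data known.

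**Figure D1:**
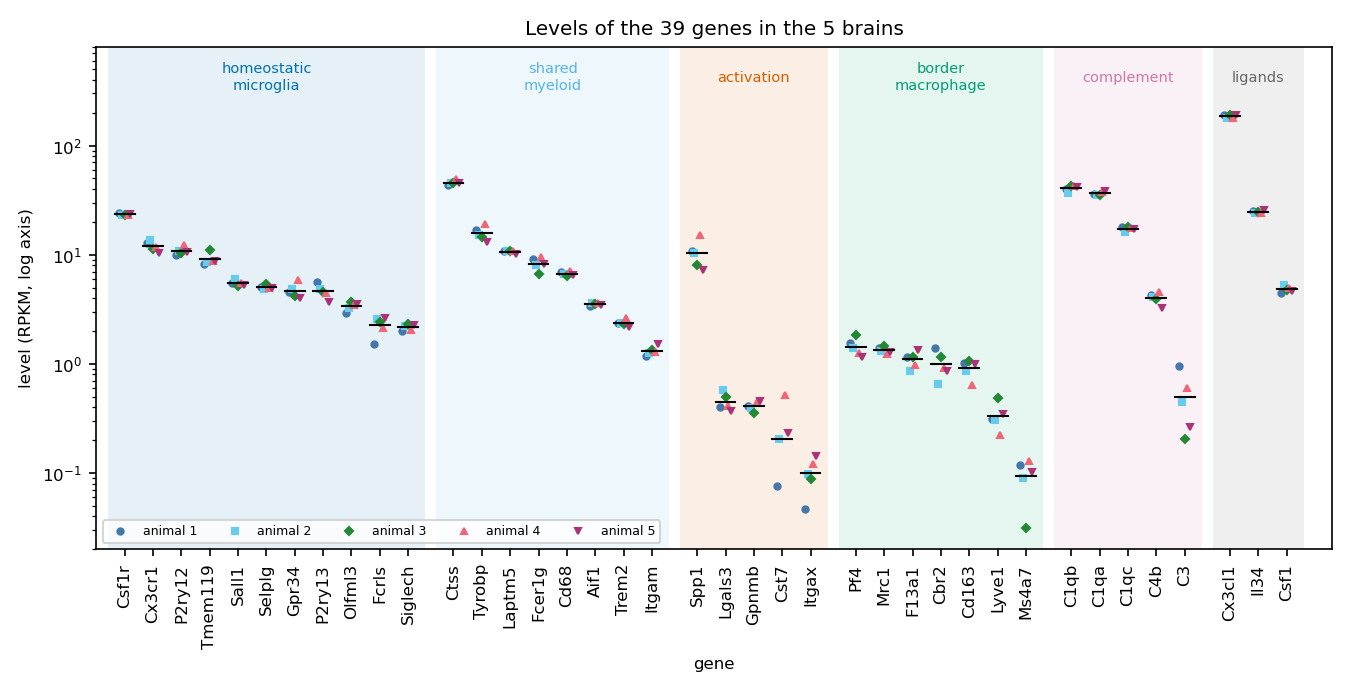
Level of each of the 39 genes (RPKM, log axis) in each of the 5 brains, by group and in falling order of the mean (black line); symbols mark animals 1 to 5, and Cst7 in animal 3, at a count of 0, is not drawn. The ligand Cx3cl1 lay highest at 185 RPKM, and 4 of the 5 activation genes lay below 1 RPKM in every animal.

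Csf1r (ENSMUSG00000024621, GRCm38 chromosome 18, 61100598 to 61132149), the receptor on which microglial survival depends, was the highest and steadiest homeostatic gene. It stood at 23.9, 23.2, 23.1, 23.3 and 23.8 RPKM in animals 1 to 5, a coefficient of variation of 1.57% against the 2.48% that counting error alone would give. No animal stood apart for this gene. Its exons overlap those of Hmgxb3 on the opposite strand over 15.1% of their length, and no source used here says whether strand was used in counting.

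The chemokine receptor Cx3cr1 (ENSMUSG00000052336, chromosome 9, 119901616 to 120069879) had 12.9, 13.5, 11.3, 11.9 and 10.3 RPKM in animals 1 to 5. Animals 1 and 2 were highest and animal 5 lowest, a range of 1.30-fold. Each gene's spread between animals was compared with the trend for genes of like abundance with edgeR's quasi-likelihood dispersions, and p-values were adjusted with the Benjamini-Hochberg method over all 14770 genes tested. For Cx3cr1 the spread was 3.405 times the trend (edgeR adjusted p = 0.845), which does not pass the threshold of 0.05.

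The purinergic receptors P2ry12 and P2ry13, through which microglia sense ADP, are neighbours on chromosome 3, 5389 bases apart on the same strand. P2ry12 (59216272 to 59262871) had 9.95, 10.9, 10.5, 12.3 and 10.6 RPKM and P2ry13 (59207892 to 59210882) had 5.65, 4.89, 4.596, 4.42 and 3.72 RPKM in animals 1 to 5. P2ry12 exceeded P2ry13 in all 5 animals, by 2.32-fold (log2 ratio 1.21 ± 0.28, exact two-sided sign-flip p = 0.062). The ratio was smallest in animal 1 and largest in animal 5.

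Tmem119, a membrane protein used as a microglial marker, had 8.17, 8.65, 11.0, 8.79 and 8.72 RPKM in animals 1 to 5. Animal 3 stood above the other 4, which lay within 8.17 to 8.79. Tmem119 was lower than P2ry12 in 4 of 5 animals (log2 ratio -0.26 ± 0.20, exact p = 0.125), and the order turned in animal 3.

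The other homeostatic genes lay between 2.18 and 5.48 RPKM with the deposited lengths. Sall1, the transcription factor that keeps microglial identity, averaged 5.48 ± 0.33, and Selplg, the ligand of P-selectin, 5.04 ± 0.23. Gpr34, a receptor for lysophosphatidylserine, averaged 4.69 ± 0.71, the secreted glycoprotein gene Olfml3 3.39 ± 0.30 and the lectin receptor Siglech 2.18 ± 0.15. With principal transcripts Selplg averaged 11.6 RPKM, above Tmem119 at 9.36, and Siglech 3.44. Fcrls, an Fc receptor-like gene, was lowest in animal 1 at 1.54 RPKM and ran from 2.15 to 2.63 in the others. Its mean count was low, so counting error alone gives a coefficient of variation of 11.5%, against the 19.8% seen.

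None of the 11 homeostatic genes varied more than its trend at the threshold by edgeR's test (1 at an unadjusted p below 0.05, Cx3cr1), and DESeq2 marked none as a dispersion outlier. Their median range between animals was 1.26-fold, against 1.19-fold over all genes tested. The animals did not order the same way from gene to gene. The highest value fell in animal 3 for 4 of the 11 genes, in animals 1, 2 and 4 for 2 each and in animal 5 for 1. Summed over the 11 genes the levels were 82.2, 84.9, 83.7, 84.6 and 79.9 RPKM in animals 1 to 5.

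**Figure D2:**
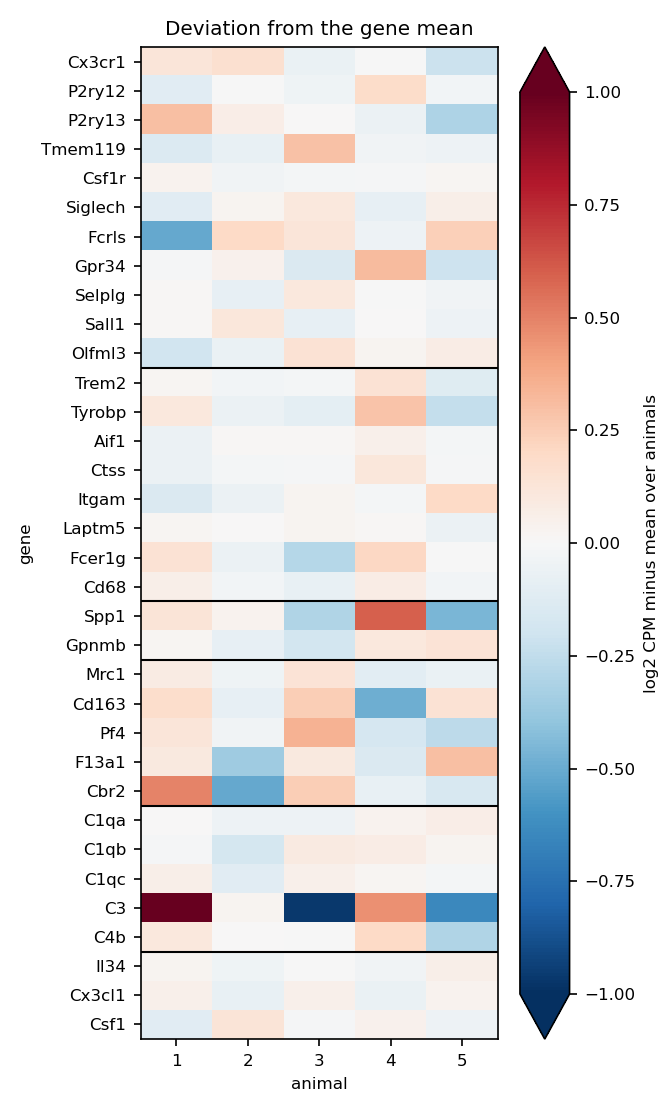
Deviation of the 34 genes tested from their own mean over the 5 animals (log2 CPM, counts scaled to the TMM-adjusted library size), with genes in rows, animals in columns colours ending at 1 above and below the mean, and black lines between the groups. C3 spans the colour range, Spp1 is highest in animal 4, and the homeostatic genes at the top show no animal that is high throughout.

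Among genes shared by microglia and other myeloid cells, the lysosomal protease gene Ctss (ENSMUSG00000038642, chromosome 3, 95526786 to 95556403) led with 43.5, 45.6, 45.0, 49.3 and 45.4 RPKM in animals 1 to 5. It was the highest member that is not a ligand and ranked at position 1020 of all rows. Tyrobp, the adaptor through which Trem2 and other receptors signal, had 16.7, 15.1, 14.5, 19.0 and 13.2 RPKM. Fcer1g, the related signalling chain of Fc receptors, averaged 8.31 ± 1.10 RPKM and was lower than Tyrobp in all 5 animals, at 53.3% of its level (log2 ratio -0.91 ± 0.16, exact p = 0.062).

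Trem2, the lipid-sensing receptor that pairs with Tyrobp, had 2.39, 2.35, 2.32, 2.62 and 2.18 RPKM in animals 1 to 5. It was 15.8% of Tyrobp on this scale (log2 ratio -2.67 ± 0.11, exact p = 0.062). That share depends on the gene length used, which is 4946 bases for Trem2 in the deposited values and 1088 bases for its principal annotated transcript. With principal transcripts for both genes Trem2 averaged 10.8 RPKM and the log2 ratio was -0.77, still below Tyrobp.

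Laptm5, a lysosomal membrane protein, averaged 10.7 ± 0.23 RPKM, Cd68, a glycoprotein of phagocyte lysosomes, 6.72 ± 0.29, and Aif1, which encodes the marker protein Iba1, 3.52 ± 0.11. Aif1 varied by 3.15% between animals, where counting error alone gives 11.4%, and it averaged 6.17 RPKM with its principal transcript. Itgam, the integrin chain CD11b, averaged 1.32 ± 0.12 RPKM, but 68.7% of its exonic bases overlap the annotated gene Gm49368 on the same strand, which had a count of 0 in every library. Its level is therefore uncertain.

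Animal 4 had the highest value for 6 of the 8 shared myeloid genes, among them Tyrobp, Ctss, Trem2 and Fcer1g. It was highest for 12 of all 39 members, these 6 included. The share over all genes is not given here, so the count is not shown to be particular to myeloid genes. The summed levels were 93.9, 93.4, 90.5, 103 and 90.8 RPKM in animals 1 to 5. None of the 8 passed the threshold for variability by edgeR's test, none had an unadjusted p below 0.05, and DESeq2 marked none. Oligodendrocyte markers were also highest in animal 4 (summed over 6 genes 888, 895, 871, 1044 and 854 RPKM in animals 1 to 5, none at 0). So were astrocyte markers (6 genes, in sum 746, 729.5, 765, 783 and 715 RPKM, none at 0). Neutrophil genes had their top value in animal 4 and their lowest in animal 3, as the shared myeloid sum did (6 genes, in sum 2.30, 3.92, 1.78, 4.59 and 2.04 RPKM). Long nuclear RNAs, which shift with RNA quality, were lowest in animal 4 (6 genes, in sum 297, 347, 285, 277 and 328 RPKM, with 5 tested, none called by edgeR and all 5 at an unadjusted p below 0.05). The part of these in the shared myeloid sum was not tested.

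Of the activation genes, Itgax, Cst7 and Lgals3 had at most 16 counts in any library, and Gpnmb had more. Itgax, the integrin chain CD11c, had 3, 7, 6, 9 and 9 counts in animals 1 to 5. Cst7, the protease inhibitor cystatin F, had 1, 3, 0, 8 and 3 counts, and the count of 0 in animal 3 allows up to 3 counts, or 0.214 RPKM. Lgals3, which encodes galectin-3, had 9 to 16 counts and Gpnmb, a lysosomal glycoprotein, 33 to 45. Itgax, Cst7 and Lgals3 did not pass the low-count filter, so their spread between animals was not tested. Gpnmb stood at 0.412 ± 0.039 RPKM and did not vary beyond its trend (edgeR adjusted p = 0.999).

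Against myeloid genes with related roles, these transcripts were low in every animal. As a ratio of mean RPKM, Itgax had 7.53% of the level of Itgam, with the uncertainty of Itgam, Gpnmb 6.13% of Cd68 and Cst7 0.451% of Ctss. With 0.1 RPKM added to both genes, the log2 ratios were -2.85 ± 0.18 for Itgax, -3.74 ± 0.090 for Gpnmb and -7.48 ± 0.95 for Cst7. Each had the same sign in all 5 animals (exact p = 0.062), but the added 0.1 RPKM is about as large as Itgax itself and raises its share to 13.9%. With 1 added, the log2 ratio was -1.07 for Itgax and -5.29 for Cst7. With principal transcripts and 0.1 added, Gpnmb had 11.8% of Cd68, against 7.49% with the deposited lengths.

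Spp1 (ENSMUSG00000029304, chromosome 5, 104435118 to 104441050), which encodes the secreted phosphoprotein osteopontin, was the exception in level. In tested spread it differed from Gpnmb, the only other activation gene tested. It had 10.9, 10.4, 8.08, 15.2 and 7.27 RPKM in animals 1 to 5 (241, 255, 189, 390 and 158 counts). Of its exonic bases, 18.75% overlap the annotated gene Gm42793 on the same strand, which had at most 1 count in any library. This adds uncertainty to the level of Spp1. Animal 4 stood highest, animals 3 and 5 lowest. The range was 2.08-fold and the spread 13.5 times the trend (edgeR adjusted p = 0.0314). Spp1 was the only member called more variable, 1 of 34 tested, where 0.305% of all genes tested were called. With 0.1 RPKM added to both genes, it exceeded Lgals3 by 18.5-fold (log2 ratio 4.21 ± 0.45, exact p = 0.062). As a ratio of mean RPKM, Spp1 had 2300% of the level of Lgals3. Lgals3 was the next activation gene by level with the deposited lengths. With principal transcripts it averaged 0.591 RPKM, below Gpnmb at 0.725.

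The call for Spp1 rests on several animals and on the method. Without animal 4 the range was 1.51-fold (edgeR adjusted p = 0.594), without animal 5 it was 1.86-fold (adjusted p = 0.0982) and without animal 3 the adjusted p was 0.0552. It was 0.109 when edgeR's prior was fitted without the robust option, and 0.390 with limma on log2 RPKM. Spp1 stayed called without animal 1 (edgeR adjusted p = 0.0253) and without animal 2 (0.0211).

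Spp1 is also made by neurons of the brainstem and not by activated microglia alone. A pair of genes of brainstem and spinal neurons, chosen after their values were seen, were highest and lowest in the same animals. Summed over the glycine transporter Slc6a5 and the glycine receptor Glra1 the levels were 2.23, 3.13, 2.34, 7.14 and 1.16 RPKM in animals 1 to 5, and Slc6a5 was itself called (edgeR adjusted p = 3.64e-07). Oligodendrocyte and astrocyte markers, given above, were also highest in animal 4 and lowest in animal 5. So were the members Gpr34, Tyrobp, Trem2 and C4b. Of all 39 members, Spp1 included, 12 were highest in animal 4. Animals 1 and 5 were each lowest for 10, and animal 3 for 9. A like count over all genes is not given here. The part of any of these in the result for Spp1 was not tested.

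**Figure D3:**
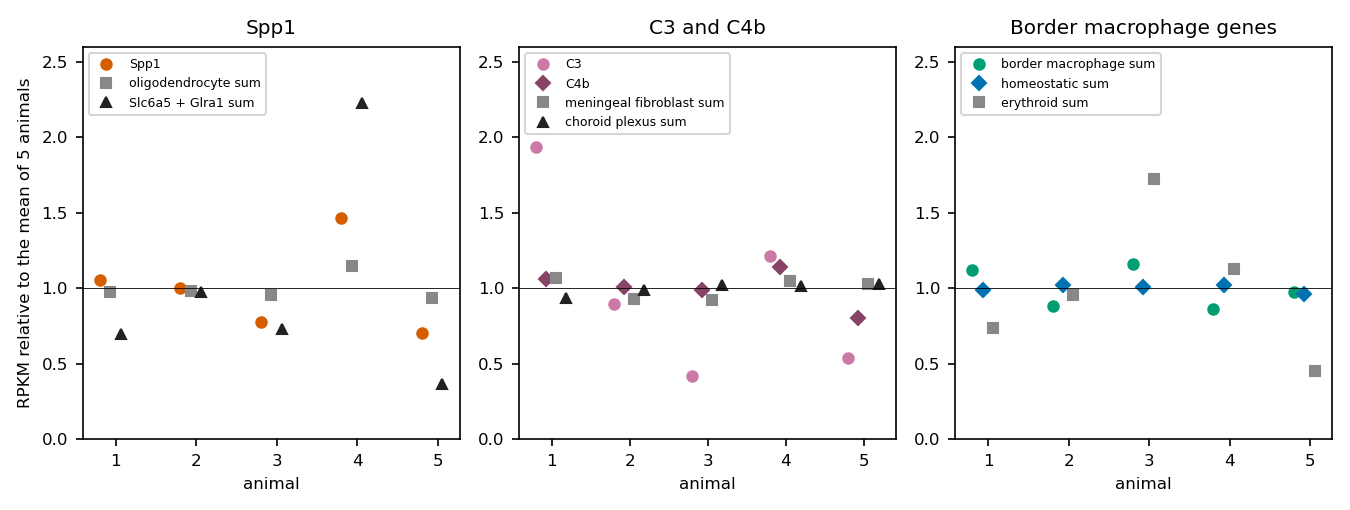
Levels in animals 1 to 5 relative to the mean of the 5 animals (RPKM ratio, linear axis from 0), for Spp1 beside oligodendrocyte and brainstem markers, for C3 and C4b beside meningeal fibroblast and choroid plexus markers, and for border macrophage genes beside homeostatic and erythroid genes. Spp1 and both marker sums are highest in animal 4, C3 is highest in animal 1, and the erythroid sum ranges more widely than the border macrophage sum.

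Border macrophage genes were present at low levels, in sum 7.51% ± 1.09 of the summed homeostatic genes. Mrc1 (ENSMUSG00000026712, chromosome 2, 14229392 to 14332057), which encodes the mannose receptor CD206, had 1.41, 1.31, 1.46, 1.24 and 1.27 RPKM in animals 1 to 5. It stood at 11.9% of Cx3cr1 (log2 ratio -3.07 ± 0.17) and 6.09% of Csf1r (-4.04 ± 0.097) in level, with the same sign in all 5 animals (exact p = 0.062 each). With principal transcripts the shares were 16.8% and 6.88%. Csf1r is carried by both cell kinds, so these shares are of transcripts and not of cells.

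Cd163, the scavenger receptor for haemoglobin bound to haptoglobin, had 1.01, 0.861, 1.07, 0.635 and 1.0 RPKM in animals 1 to 5. It was lowest in animal 4 and lay below Mrc1 in all 5 (69.8% of its level, log2 ratio -0.52 ± 0.21, exact p = 0.062). Pf4, a platelet and macrophage chemokine, averaged 1.44 ± 0.28 RPKM and was higher than Mrc1 in 4 of 5 animals (log2 ratio 0.086 ± 0.17, exact p = 0.313), a difference smaller than the spread between animals.

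F13a1, the A chain of coagulation factor XIII, averaged 1.10 ± 0.19 RPKM and Cbr2, a carbonyl reductase, 1.002 ± 0.29. Lyve1, the hyaluronan receptor of a perivascular subset and of lymphatic vessels, had 9 to 18 counts and 25.1% of the level of Mrc1 as a ratio of mean RPKM (log2 ratio with 0.1 added -1.74 ± 0.25). Ms4a7, a membrane protein that separates border macrophages from microglia, had 7, 6, 2, 9 and 6 counts and 7.07% of the level of Mrc1 as a ratio of mean RPKM. With 0.1 RPKM added, which is more than Ms4a7 itself, the share was 13.3% (log2 ratio -2.91 ± 0.39), and with principal transcripts as well it was 23.4%. Lyve1 and Ms4a7 did not pass the low-count filter.

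None of the 5 border macrophage genes tested varied beyond its trend by edgeR's test (0 at an unadjusted p below 0.05), and DESeq2 marked none. Their median range was 1.57-fold, which includes the counting error of genes with 11 to 132 counts. Animal 3 was highest for 4 of the 7 genes, Mrc1, Cd163, Lyve1 and Pf4, and for 9 of all 39 members. The share over all genes is not given here. The summed levels were 6.98, 5.48, 7.24, 5.38 and 6.09 RPKM in animals 1 to 5. Red blood cell genes, a sign of blood left in the tissue, were also highest in animal 3 (5 of 5 detected, in sum 101, 131, 236, 154 and 62.2 RPKM in animals 1 to 5). The 2 sums differed elsewhere, with the red blood cell sum lowest in animal 5 and the border macrophage sum in animal 4. All 5 red blood cell genes were called by edgeR's test, where 0.305% of all genes tested were called. Meningeal fibroblast markers were not highest there (6 of 6 detected, in sum 42.7, 37.3, 36.8, 42.0 and 41.2 RPKM). Whether blood or meninges left on the tissue bear on the border macrophage sum was not tested.

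The complement genes split into abundant C1q chains and scarce C3. The 3 chains of C1q, the protein that recognises targets of the classical pathway, lie side by side on the minus strand of chromosome 4, from 136880129 to 136898803, in the order C1qb, C1qc and C1qa. C1qa (ENSMUSG00000036887) had 36.4, 35.6, 35.01, 37.5 and 38.4 RPKM and C1qb (ENSMUSG00000036905) had 40.2, 36.5, 43.0, 42.9 and 41.4 RPKM in animals 1 to 5. C1qc (ENSMUSG00000036896) had 18.0, 16.2, 17.9, 17.6 and 17.2 RPKM. Animal 2 was lowest for C1qb and C1qc and animal 3 for C1qa. On the TMM-scaled log2 CPM scale animal 2 was also lowest for C1qb and C1qc. For C1qa animals 2 and 3 were level there, with deviations from the mean of -0.0544 and -0.0542. The sum of the 5 complement genes was lowest in animal 2 at 92.8 RPKM, against 99.7 to 103 in the others.

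C1qa was slightly lower than C1qb in all 5 animals (log2 ratio -0.16 ± 0.097). It exceeded C1qc by 2.10-fold and C1qb exceeded C1qc by 2.34-fold (log2 ratios 1.07 ± 0.079 and 1.22 ± 0.059, exact p = 0.062 for each of the 3 pairs). The SD of these ratios was below 0.1, the narrowest of any pair together with Gpnmb over Cd68 and Mrc1 over Csf1r. The size of the gap to C1qc depends on length. With principal transcripts, where C1qc has 1203 in place of 1931 bases, C1qa exceeded C1qc by 1.31-fold and C1qb by 1.46-fold.

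The protein is built from equal numbers of the 3 chains, and the sequences before C1qb and C1qc are shown because these neighbours kept a near constant ratio between animals. Ctss is shown as the most abundant myeloid member and Spp1 as the member that varied most beyond its trend. Each line holds the 250 bases before the start that RefSeq gives on GRCm38.p6, 5′ to 3′ on the strand of the gene. For C1qc this start lies inside the GENCODE gene given above, so 151 of its 250 bases are within that gene. Capitals mark GAGGAA on either strand (TTCCTC on the other), the core bound by PU.1, the transcription factor that defines myeloid cells.
C1qb, chr4:136886201-136886450, minus strand: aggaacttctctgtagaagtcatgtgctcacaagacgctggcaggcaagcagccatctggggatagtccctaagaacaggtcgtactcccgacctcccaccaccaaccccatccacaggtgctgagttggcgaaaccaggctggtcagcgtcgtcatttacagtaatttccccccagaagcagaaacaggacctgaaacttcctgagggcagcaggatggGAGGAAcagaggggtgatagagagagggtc
C1qc, chr4:136892915-136893164, minus strand: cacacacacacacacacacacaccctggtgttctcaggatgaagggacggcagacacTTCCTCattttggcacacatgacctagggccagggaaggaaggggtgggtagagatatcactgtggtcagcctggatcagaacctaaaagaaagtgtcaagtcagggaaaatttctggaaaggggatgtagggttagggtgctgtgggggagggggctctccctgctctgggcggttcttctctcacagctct
Ctss, chr3:95526536-95526785, plus strand: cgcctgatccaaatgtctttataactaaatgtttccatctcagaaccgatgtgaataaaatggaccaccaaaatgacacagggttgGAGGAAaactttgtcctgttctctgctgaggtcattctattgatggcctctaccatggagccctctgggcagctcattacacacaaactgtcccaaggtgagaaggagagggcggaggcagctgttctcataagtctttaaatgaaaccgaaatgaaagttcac
Spp1, chr5:104434861-104435110, plus strand: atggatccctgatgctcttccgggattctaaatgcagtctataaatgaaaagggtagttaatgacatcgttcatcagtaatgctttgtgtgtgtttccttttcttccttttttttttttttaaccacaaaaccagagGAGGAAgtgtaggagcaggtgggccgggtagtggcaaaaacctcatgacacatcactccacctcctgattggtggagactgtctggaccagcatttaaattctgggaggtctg

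Of the 39 members, 30 had such a window, and 16 of these (53.3%) held GAGGAA on either strand, against 25.9% of all 27025 genes with a window. By group it was found for 6 of 7 shared myeloid, 4 of 6 border macrophage, 2 of 3 complement, 2 of 7 homeostatic, 1 of 5 activation and 1 of 2 ligand genes. The longer GAGGAAGT, which contains GAGGAA, was found for 3 of the 30 members (Spp1, Pf4 and C1qc, 10%), against 2.79% of all genes. In C1qb the match lies 30 bases before the RefSeq start, in C1qc 193, in Ctss 164 and in Spp1 113. A match is a description of these letters and not a site of binding. Spp1 has a second annotated start, whose window holds no match.

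C3 (ENSMUSG00000024164, chromosome 17, 57203970 to 57228136), the protein on which all complement pathways meet, had 0.959, 0.444, 0.205, 0.599 and 0.265 RPKM in animals 1 to 5 (66, 34, 15, 48 and 18 counts). Animal 1 was highest and animals 3 and 5 lowest. The range of 4.24-fold was the widest of all members tested, and the coefficient of variation was 61.1% against 16.6% from counting error. The spread was 10.8 times the trend, which missed the threshold after adjustment (edgeR adjusted p = 0.0704). It passed without animal 2 (adjusted p = 0.0392), without animal 4 (0.0279) and with no low-count filter (4.45e-05), and DESeq2 marked C3 as a dispersion outlier. Without animal 1 the range was 2.68-fold (adjusted p = 0.547). The spread of C3 also did not pass without animal 3 (edgeR adjusted p = 0.205) or without animal 5 (0.109). Nor did it pass when edgeR's prior was fitted without the robust option, or with limma on log2 RPKM. Whether C3 is called thus depends on the animals and on the method.

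Choroid plexus markers were lowest in animal 1, where C3 was highest (5 of 5 detected, in sum 463, 489.6, 504, 503 and 509 RPKM in animals 1 to 5). The meningeal fibroblast sum, given above, was highest in animal 1 and lowest in animal 3, as C3 was, over a narrower range. Its part in the spread of C3 was not tested.

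C4b (ENSMUSG00000073418, chromosome 17, 34728380 to 34743882), the C4 gene of mouse brain, had 4.28, 4.06, 3.97, 4.58 and 3.24 RPKM in animals 1 to 5. It was lowest in animal 5 (range 1.41-fold, edgeR adjusted p = 0.911). Of its sequence, 32.0% is shared with other annotated transcripts, foremost its neighbour C4a, which had 14 to 17 counts, so its level is uncertain. C4b exceeded C3 by 7.62-fold and C1qb exceeded C3 by 75.9-fold, in all 5 animals (log2 ratios 2.93 ± 0.62 and 6.25 ± 0.75, exact p = 0.062).

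**Figure D4:**
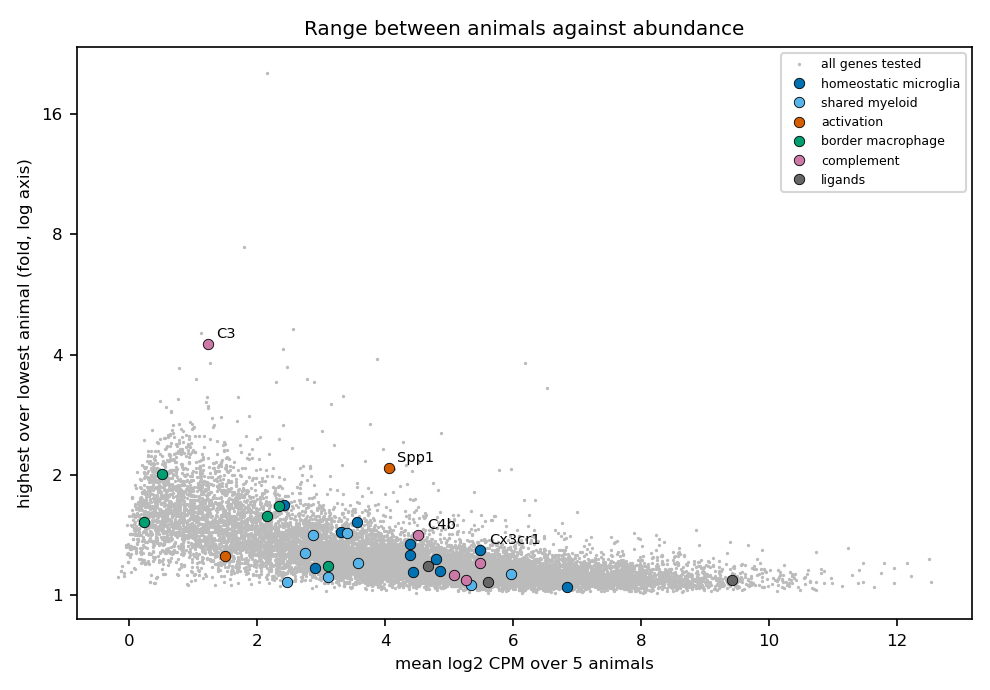
Range between animals (highest over lowest TMM-scaled CPM, log axis) against abundance (mean log2 CPM) for the 14770 genes tested (grey) and the 34 members among them (coloured by group). Members with an unadjusted p below 0.05 are named: Spp1 and C3 stand above the cloud at 2.08-fold and 4.24-fold, C4b and Cx3cr1 lie at its upper edge.

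Of the ligands, Cx3cl1 (ENSMUSG00000031778, chromosome 8, 94772009 to 94782427), the chemokine that neurons display to microglia, was the most abundant member. It had 191, 178, 190.4, 177 and 190.3 RPKM in animals 1 to 5 and ranked at position 148 of all rows. Its receptor Cx3cr1 was lower in every animal, the ligand exceeding it by 15.4-fold (log2 ratio 3.95 ± 0.19, exact p = 0.062). With principal transcripts the ligand exceeded it by 20.6-fold. The ligand is made by many neurons and the receptor by few cells of bulk tissue, so the ratio is one of tissue transcripts.

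Il34, the neuronal ligand of CSF1R, had 25.0, 24.2, 24.6, 24.1 and 25.8 RPKM in animals 1 to 5. Csf1, the second ligand of the same receptor, had 4.41, 5.32, 4.72, 4.95 and 4.62 RPKM. Il34 exceeded Csf1 by 5.07-fold (log2 ratio 2.34 ± 0.13), with the same sign in all 5 animals (exact p = 0.062). Csf1r itself exceeded Cx3cr1 by 1.96-fold (0.97 ± 0.16, exact p = 0.062), and by 2.44-fold with principal transcripts. None of the 3 ligands varied beyond its trend by edgeR's test (0 at an unadjusted p below 0.05, none marked by DESeq2), and their ranges were 1.08-fold to 1.18-fold.

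**Figure D5:**
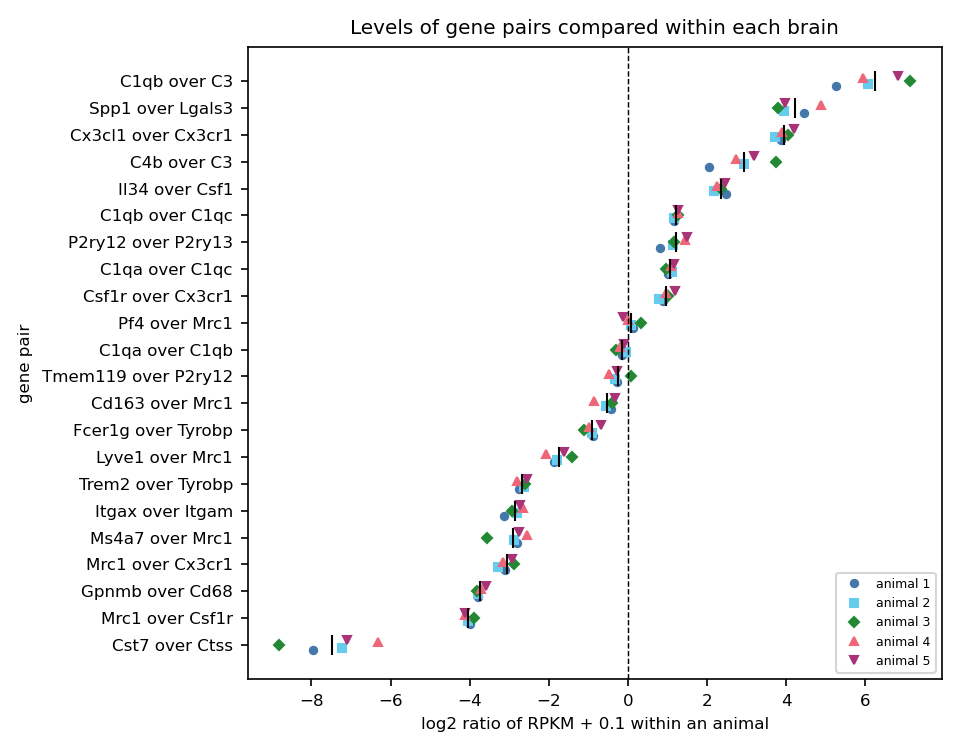
Log2 ratio of the first over the second gene of 22 pairs (RPKM plus 0.1) within each of the 5 brains; black ticks are means and the dashed line marks equal levels. In 20 pairs all animals lie on 1 side of the line, and the exceptions are Tmem119 over P2ry12 and Pf4 over Mrc1.

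In 20 of the 22 pairs the ratio lay on 1 side of equality throughout. Each of these has an exact p of 0.062, the smallest that 5 animals allow (0.0688 adjusted over the pairs), so no pair can pass 0.05. Over all 34 members tested, 4 had an unadjusted p below 0.05 for variability (11.8%, against 5.43% of all genes tested), namely Spp1, C3, Cx3cr1 and C4b. Their median range was 1.24-fold, against 1.19-fold over all genes tested. For 17 of the 34 the spread was below the trend (50%, against 56.6% of all genes).

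Further genes of the same cells and pathways were counted from lists that do not include the members. Of 24 other microglia genes, all tested, Sparc was the most abundant at 138.5 ± 19.3 RPKM, and Mef2c, a transcription factor gene that neurons also express, stood at 31.1 ± 2.52 RPKM. Only Sparc, a matrix glycoprotein also made by astrocytes and vessels, was called (edgeR adjusted p = 0.0343), 1 of 24 where 0.305% of all genes tested were called. At an unadjusted p below 0.05 there were 6 of 24 (25%, against 5.43% of all genes tested). The myeloid transcription factor genes Spi1, which encodes PU.1, and Irf8 stood at 1.01 ± 0.16 and 0.944 ± 0.21 RPKM.

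Of 20 other activation genes, 16 were tested and none was called by edgeR's test (1 at an unadjusted p below 0.05, B2m). The most abundant were Fth1, Apoe and Ctsd, at 1486 ± 81.7, 511 ± 14.9 and 142 ± 1.41 RPKM, genes that astrocytes, oligodendrocytes and neurons of resting brain also express. Some genes more restricted to activated microglia were low, with at most 11 counts for Clec7a, 8 for Ch25h, 5 for Ccl3 and 1 for Ccl4 in any library. Lyz2, Cd52 and Ccl6 of the same list passed the low-count filter and stood at 6.48 ± 1.24, 1.32 ± 0.25 and 0.654 ± 0.062 RPKM. Axl, a receptor that binds dying cells, stood at 11.3 ± 0.49 RPKM and Lpl, lipoprotein lipase, at 3.99 ± 0.071.

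Of 14 other border macrophage genes, 8 were tested and none was called by edgeR's test (1 unadjusted, H2-Aa). Cd74, Colec12 and Maf led at 7.57 ± 1.10, 3.68 ± 0.53 and 3.06 ± 0.26 RPKM. The scavenger receptor Stab1 stood at 2.27 ± 0.12, above Mrc1, while Folr2 had at most 16 counts and Cd209f at most 13.

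Of 34 other complement genes, 24 were tested and none was called by edgeR's test (1 unadjusted, Nptx1). Clu, Calr and Sez6l2 were the most abundant, at 213 ± 2.88, 129 ± 6.06 and 97.9 ± 4.52 RPKM. Clu encodes the complement regulator clusterin, which astrocytes make, and Sez6l2 a neuronal membrane protein. C1ra and C1s1, the proteases that act with C1q, stood at 0.366 ± 0.039 and 0.290 ± 0.084 RPKM. Of the late components on the list, C7 had at most 19 counts and 0.369 ± 0.12 RPKM, Hc, which encodes C5, at most 12 counts and C6 at most 1. Cfd, which encodes factor D, had a count of 0 in every library, which allows up to 3 counts each. The C3a receptor gene C3ar1 stood at 0.652 ± 0.12 RPKM and the C3 receptor chain Itgb2 at 2.19 ± 0.27.

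Of 7 genes with C1q-like domains that act at synapses or are secreted, all were tested. C1qtnf4, C1ql3 and Cbln2 led at 84.3 ± 8.20, 16.4 ± 1.80 and 13.9 ± 1.39 RPKM. Cbln1, a cerebellar synaptic organiser, was called (8.84, 10.02, 9.20, 12.7 and 6.17 RPKM in animals 1 to 5, edgeR adjusted p = 0.0461), with animal 4 highest and animal 5 lowest, as for Spp1. It was the 1 call among 7 genes (0.305% of all genes tested were called), and 4 of the 7 had an unadjusted p below 0.05 (57.1%, against 5.43% of all genes tested). Of 20 signalling partners of microglia, 18 were tested and none was called by edgeR's test (1 unadjusted, Csf3r). Sirpa, Gas6 and Cd47 led at 98.6 ± 2.77, 44.9 ± 0.88 and 43.4 ± 0.99 RPKM, and Tgfb1, which microglia need for their homeostatic state, stood at 1.27 ± 0.098.

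Markers of blood-borne immune cells were scarce. Neutrophil genes summed to 1.78 to 4.59 RPKM and lymphocyte genes to 1.24 to 2.30 RPKM, and no gene of either list passed the low-count filter. Of the monocyte list, Ccr2 had at most 8 counts and Ly6c2 at most 2, and the list sum of 1.72 to 2.07 RPKM came mostly from Vcan (1.81 ± 0.15), which oligodendrocyte precursors also make. Markers of neurons, astrocytes, endothelial and mural cells were all detected, none at 0 in every library.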

How the data were processed

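RNA of 5 samples of mouse right brain hemisphere was sequenced. The tools listed in the submitters' processing notes are STAR 2.4.1d, featureCounts 1.4.6-p4 and CASAVA 1.7, and the build is GRCm38. Not given in the sources used here are which gene annotation was counted, whether strand was used and how multi-mapping reads were handled. The deposited table holds raw counts for 47729 Ensembl genes. The deposited RPKM values were made by the authors from these counts by dividing successive entries by the totals of successive libraries, as a test of the values shows: the length implied for a gene varied by a median of 0.00178% under that rule and 10.7% with own totals. RPKM was therefore recomputed from the counts, each library's own total and the recovered length.

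Symbols and positions come from GENCODE M21 (GRCm38). The count model was an intercept-only fit with robust glmQLFit after filterByExpr and TMM (edgeR 4.0.16, R 4.3.3), and each quasi-dispersion over its trend was compared with an F distribution (4 residual and 15.3 prior degrees of freedom, upper tail). Ranges use log2 CPM with a prior count of 2. Pairs use log2 of RPKM plus 0.1. Shared sequence counts words of 50 bases, every 5 bases, also present in transcripts of other genes. DESeq2 1.42.0 and limma 3.58.1 served as alternatives. Intervals and limits at a count of 0 cover counting error only.

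The members, lists and pairs were chosen with earlier results of these data known. Named were all 39 members, and of each pathway list the 3 most abundant tested genes and those called. A gene that this rule names is not reported here. Marker lists are given mainly by their sums. Every other gene named, Slc6a5 and Glra1 included, was chosen after its values were seen.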

Additional observations from a re-analysis of the deposited data

Results flagged for a closer look

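For each of the 39 genes and the 6 group sums, the gap of the highest or lowest animal to its nearest neighbour was divided by the whole range, and a share above 0.71 (Dixon's limit for 5 values) was noted. Of 45 such sets 3 passed, where chance gives about 1 in 20, or 2.25. Tmem119 was highest in animal 3 at 11.0 RPKM, against 8.17 to 8.79 in the others (share 0.779). Laptm5 was lowest in animal 5 at 10.3 RPKM, against 10.7 to 10.8 (0.864). The summed shared myeloid genes were highest in animal 4 at 103 RPKM, against 90.5 to 93.9 (0.732).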

How the results depend on the processing

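The number of members called more variable was 1, and it was 1 with DESeq2 size factors, 2 with no low-count filter, 0 without the robust prior, 0 under limma with recomputed RPKM and 2 as DESeq2 dispersion outliers. It ran from 0 to 2 without any 1 animal, and without animal 4 the 1 gene called was C3 and not Spp1. Over these alternatives the adjusted p ran from 8.35e-08 to 0.594 for Spp1 and from 4.45e-05 to 0.910 for C3. The 20 of 22 pairs with 1 sign were 20 with 1 added to RPKM, with deposited RPKM, with the union of exons and with principal transcripts, and 20 to 21 without any 1 animal. Of the 13 pairs with both genes at 1 RPKM or more, 11 had 1 sign. None of the 211 mean log2 ratios changed sign. With principal transcripts (chosen after seeing the data) the median level within an animal was 5.57 RPKM against 5.19 for homeostatic genes, 10.8 against 7.51 for shared myeloid, 0.574 against 0.392 for activation, 27.9 against 17.4 for complement and 28.4 against 24.7 for ligands. Without Spp1 (also chosen after seeing the data) the activation genes stood at 0.297, and with the union of exons the border macrophage genes at 0.847 against 1.02. The order of the groups was the same with principal transcripts. Without any 1 animal these medians ran from 5.11 to 5.26 for homeostatic, 7.32 to 7.76 for shared myeloid, 0.379 to 0.401 for activation, 0.984 to 1.06 for border macrophage, 17.2 to 17.7 for complement and 24.5 to 24.9 for ligands. No paired analysis was possible because all samples form 1 group. Itgax, Cst7, Lgals3, Lyve1 and Ms4a7 had too few counts at this depth to enter the test of variability.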
